A study of Mus musculus with 24 samples.

Results

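Hox genes encode homeodomain transcription factors that record position along the body axis, and they lie in 4 clusters on separate mouse chromosomes. A search of the gene table for symbols made of Hox, a cluster letter from a to d and a paralog number found 39 of 54418 genes, of which 38 are described here. In the GENCODE M21 annotation of GRCm38, the HoxA cluster lies on chromosome 6, HoxB on chromosome 11, HoxC on chromosome 15 and HoxD on chromosome 2. Enough reads were counted for 32 of the 38 genes to be tested, and 29 reached a group mean of at least 1 TPM (transcript share of a library after scaling by transcript length).

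RNA-seq was done on stromal cells of the mouse gut, sorted as negative for the epithelial protein Epcam and the leukocyte protein CD45. All mice were on a C57Bl6 background, aged 8 to 12 weeks, and the sort used GFP from an Rspo3 reporter transgene. Rspo3 encodes R-spondin 3, a secreted amplifier of Wnt signalling, and CD31, the product of Pecam1, marks endothelial cells of blood and lymph vessels. The 8 groups were small intestine or colon, CD31- or CD31+, and RSPO3- or RSPO3+, with 3 libraries each, numbered here 1 to 3 in column order. Nothing in the labels says whether libraries of a group came from separate or pooled mice, which gut segments were taken or which cells keep the reporter on. The p-values therefore measure only the spread between these samples, which may be technical.

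Library totals ran from 8462041 to 29214487 estimated counts (median 17881736). Mean Pecam1 was 202 to 631 TPM in CD31+ groups and 7.27 to 10.7 TPM in CD31- groups, and mean Rspo3 was 90.04 to 194 TPM in RSPO3+ groups and 6.72 to 10.9 TPM in RSPO3- groups, as labelled. Lymphatic endothelial markers summed to 27360 to 67290 TPM in CD31+ RSPO3+ libraries and 2412 to 4860 TPM in CD31+ RSPO3- libraries. Blood endothelial markers summed to 1274 to 1768 TPM and 9024 to 13280 TPM in the same order, so the CD31+ sorts differed in vessel type as well as in the reporter. Pairs of libraries within a group correlated at 0.958 to 0.991 across genes. In colon CD31+ RSPO3- libraries the fibroblast gene Dcn stood at 383, 427 and 2241 TPM, with library 3 apart. Colon CD31- RSPO3+ library 3 also stood apart, with a leukocyte marker sum of 68630 TPM against 4064 and 3187 TPM in its partners. Without the former, 5 Hox genes were still higher and 3 lower in colon CD31+ RSPO3- cells than in small intestine, and without the latter, 10 were higher and 8 lower in colon CD31- RSPO3+ cells.

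The position of a Hox gene in its cluster follows where along the body it is used. Paralogs with low numbers, at the 3′ end of a cluster, are anterior genes, and paralogs 9 to 13, at the 5′ end, are posterior genes. In the gut they are used in the mesoderm that forms the wall, where they help to set the boundaries between its segments. Polycomb proteins keep unused Hox genes silent, retinoic acid switches on anterior ones during development, and Hox proteins bind DNA together with Pbx and Meis cofactors. Adult stromal cells often keep the Hox pattern of the site they came from.

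Promoter windows of RefSeq (build GRCm38.p6, 250 bases before to 50 after each start) were matched for 22 of the 38 genes, in 24 windows. The upstream 250 bases are shown for Hoxa5, the gene with the smallest adjusted p among those lower in colon in both CD31- sorts, and for Hoxa10, Hoxa13 and Hoxd10, posterior genes of the colon. They lie at chr6:52204588-52204837 (minus strand), chr6:52240855-52241104 (minus strand), chr6:52260881-52261130 (minus strand) and chr2:74691641-74691890 (plus strand), and overlap no annotated exon. That of Hoxa10 belongs to the further upstream of its 2 starts. Each is read 5′ to 3′ toward the gene, and capitals mark CpG dinucleotides, the sites of DNA methylation in mammals.
Hoxa5 promoter: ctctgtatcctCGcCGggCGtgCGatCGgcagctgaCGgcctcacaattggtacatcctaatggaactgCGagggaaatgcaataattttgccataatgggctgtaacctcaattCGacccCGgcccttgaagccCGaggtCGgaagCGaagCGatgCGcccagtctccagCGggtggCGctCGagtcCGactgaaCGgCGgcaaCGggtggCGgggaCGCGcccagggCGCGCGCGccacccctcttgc
Hoxa10 promoter: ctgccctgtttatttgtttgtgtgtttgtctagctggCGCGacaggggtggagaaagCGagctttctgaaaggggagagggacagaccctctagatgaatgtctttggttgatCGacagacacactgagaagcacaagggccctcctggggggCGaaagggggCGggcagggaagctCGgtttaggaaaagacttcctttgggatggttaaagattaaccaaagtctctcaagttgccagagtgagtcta
Hoxa13 promoter: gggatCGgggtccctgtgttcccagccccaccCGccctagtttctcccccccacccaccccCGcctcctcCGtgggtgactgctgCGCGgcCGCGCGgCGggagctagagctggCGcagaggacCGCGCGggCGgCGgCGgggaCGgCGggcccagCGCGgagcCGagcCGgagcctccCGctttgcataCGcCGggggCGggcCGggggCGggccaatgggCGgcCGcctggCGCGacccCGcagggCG
Hoxd10 promoter: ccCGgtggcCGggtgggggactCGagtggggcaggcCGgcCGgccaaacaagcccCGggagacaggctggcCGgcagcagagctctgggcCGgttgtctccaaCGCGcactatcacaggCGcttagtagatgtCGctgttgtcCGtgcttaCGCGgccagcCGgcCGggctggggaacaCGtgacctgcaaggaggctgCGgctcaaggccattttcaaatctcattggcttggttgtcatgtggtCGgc
The 250 bases held 28 CpG in Hoxa5, 7 in Hoxa10, 35 in Hoxa13 and 20 in Hoxd10. Their GC content was 63.6%, 51.6%, 80.0% and 65.6% in that order. Over the full 300-base windows, the median GC content was 57.7% for Hox genes and 52.7% for all 32851 windows, and the median observed over expected CpG was 0.63 against 0.38. Hox windows ran from 39.7% GC (Hoxd4) to 81.0% (Hoxa13). The motif TTTATNG, a form bound by Cdx and posterior Hox proteins, was found on either strand in 2 of 24 Hox windows (8.3%) and in 10.9% of all windows. TGATNNAT, a form of the joint Hox and Pbx site, was found in 4 of 24 Hox windows (16.7%) against 8.8% of all, and TATAAA in 4 of 24 (16.7%) against 13.6%. Hoxb8 and Hoxd4 held TTTATNG. Hoxa2, Hoxb1, Hoxb8 and Hoxd11 held TGATNNAT.

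Colon cells carried the posterior Hox genes in every sort, and small intestinal CD31- cells carried almost none. Paralogs 9 to 13 made up 74.2% of the summed Hox TPM in colon CD31- RSPO3- libraries (range 72.5% to 77.5%) and 0.260% in the matching small intestine (0.0964% to 0.362%). In CD31- RSPO3+ cells the shares were 54.2% (51.5% to 56.9%) and 0.176% (0% to 0.286%). In CD31+ cells the shares were 34.0% (29.4% to 39.8%) in colon and 5.71% (4.36% to 7.32%) in small intestine for RSPO3- cells, and 27.7% (26.8% to 28.8%) and 11.3% (8.13% to 14.8%) for RSPO3+ cells. Leaving out the 2 libraries that stand apart gave colon shares of 52.8% (CD31- RSPO3+) and 31.1% (CD31+ RSPO3-). Library ranges of colon and small intestine did not overlap in any of the 4 sorts. Mean summed Hox levels were 149, 166, 238 and 231 TPM in small intestine and 203, 131, 264 and 263 TPM in colon, in the order CD31- RSPO3-, CD31- RSPO3+, CD31+ RSPO3- and CD31+ RSPO3+. In sorted bulk RNA, fewer cells of a type and less RNA per cell cannot be told apart.

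**Figure D1:**
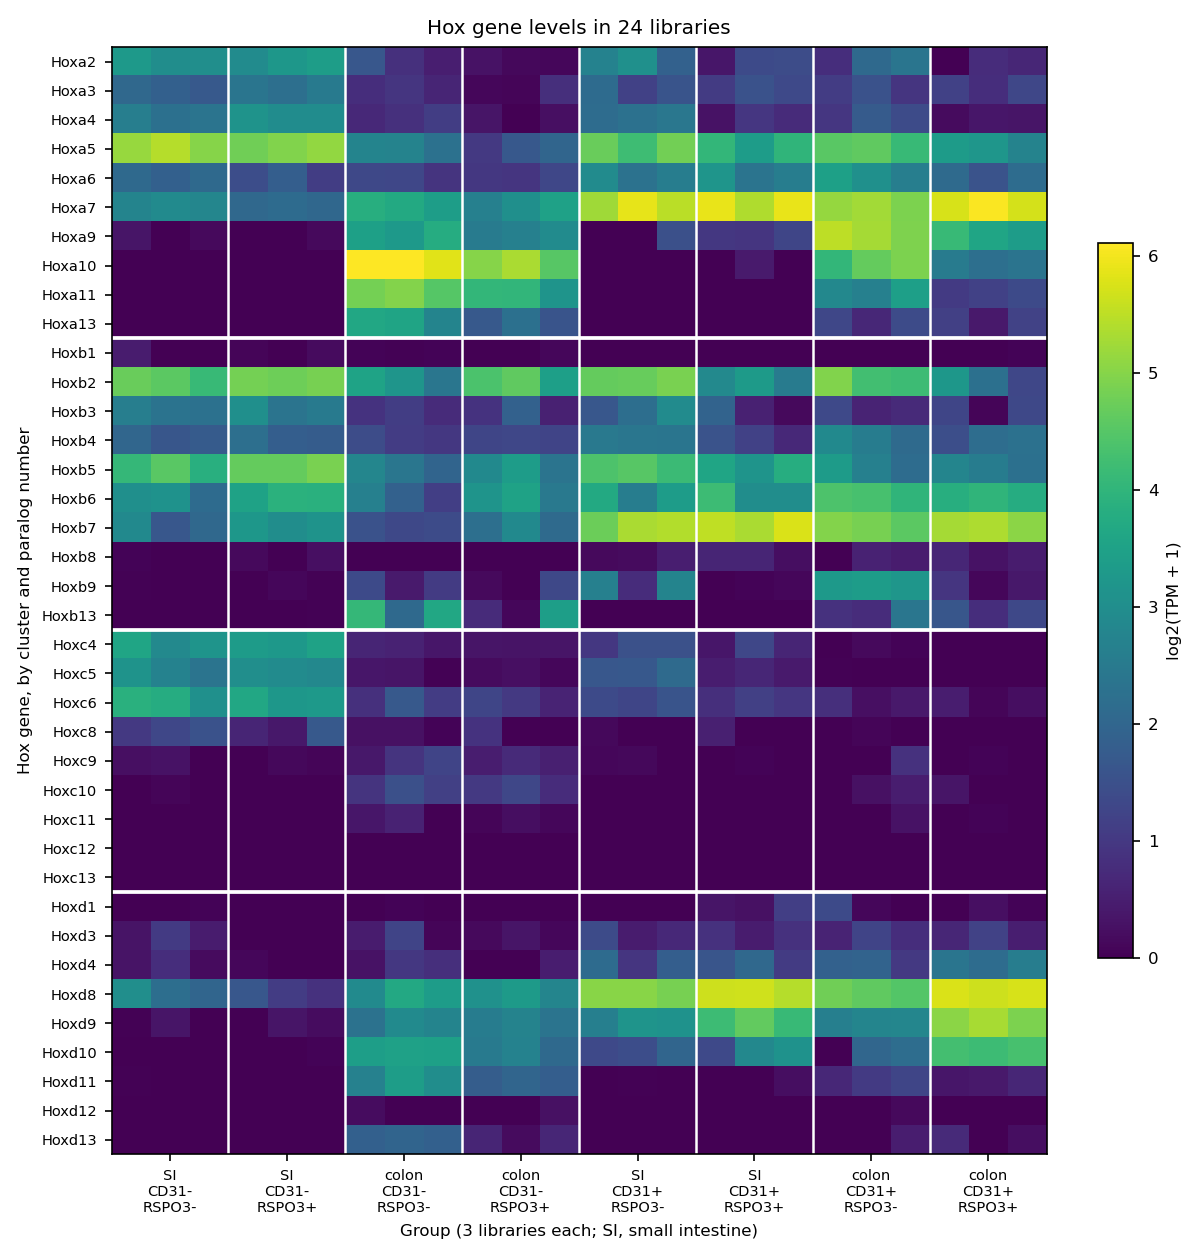
Level of each Hox gene, as log2(TPM + 1), in each of the 24 libraries, with genes ordered by cluster and paralog number and libraries by group. Bright cells are high. HoxA and HoxD paralogs 9 to 11 are bright in the colon CD31- columns and near 0 in the small intestinal CD31- columns, and Hoxc4, Hoxc5 and Hoxc6 are highest in small intestinal CD31- stroma.

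**Figure D2:**
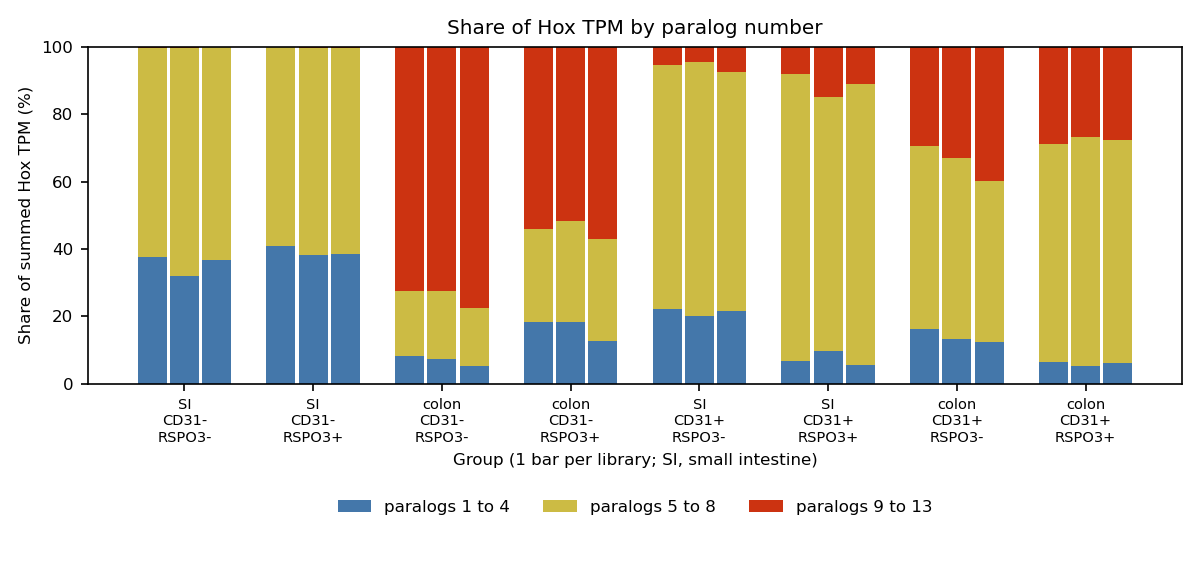
Percent of the summed Hox TPM taken by paralogs 1 to 4 (blue), 5 to 8 (yellow) and 9 to 13 (red), with 1 stacked bar for each library. For paralogs 9 to 13, colon libraries sit between 26.8% and 77.5%, small intestinal libraries between 0% and 14.8%.

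The furthest posterior gene in use differed between clusters. With a gene counted as on when all 3 libraries of a group held at least 1 TPM, the HoxA cluster ended at Hoxa7 in all 4 small intestinal groups, at Hoxa13 in both colon CD31- groups and at Hoxa11 in both colon CD31+ groups. HoxB ended at Hoxb7 in all 4 small intestinal groups, and in colon at Hoxb13, Hoxb7, Hoxb9 and Hoxb7 in the order of sorts above. HoxC ended at Hoxc8 in small intestinal CD31- RSPO3- cells and at Hoxc6 in the next 2 sorts, and no HoxC gene was on in small intestinal CD31+ RSPO3+ cells or in any colon group. HoxD ended at Hoxd8 in small intestinal CD31- RSPO3- cells, had no gene on in CD31- RSPO3+ cells and ended at Hoxd10 in both CD31+ groups of that tissue. In colon it ended at Hoxd13, Hoxd11, Hoxd9 and Hoxd10. Between 12 and 17 of the 38 genes were on in a group. A threshold of 0.5 TPM left 22 of the 32 end points the same and moved 10 further posterior, and one of 2 TPM left 27 the same and moved 5 further anterior.

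In CD31- RSPO3- stroma 12 Hox genes were higher in colon and 12 lower, of 32 tested. Over all 19050 genes, 8.79% were higher and 8.81% lower at an adjusted p under 0.05. Of the 12 tested paralogs 9 to 13, 11 were higher and 0 lower. Hoxa11, Hoxa13 and Hoxd13 had 0 counts in every small intestinal library, and others had 0 in this sort. Such genes could be called higher or not at all. Of the 9 tested paralogs 1 to 4, 0 were higher and 6 lower, and of the 11 paralogs 5 to 8, 1 was higher and 6 lower. Median log2 fold changes (colon over small intestine) were -2.12, -2.2 and 8.74 for paralogs 1 to 4, 5 to 8 and 9 to 13, or 7.07 for the last with genes at 0 counts in a group set at their bound, against 0.1 over all genes. In CD31- RSPO3+ stroma 12 were higher and 8 lower, where 3.62% and 3.4% of all genes were. The classes in the same order gave 1 higher and 4 lower, 2 and 4, and 9 and 0, with medians of -2.18, -1.87 and 8.14 (6.75 at the bound) against -0.01.

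**Figure D3:**
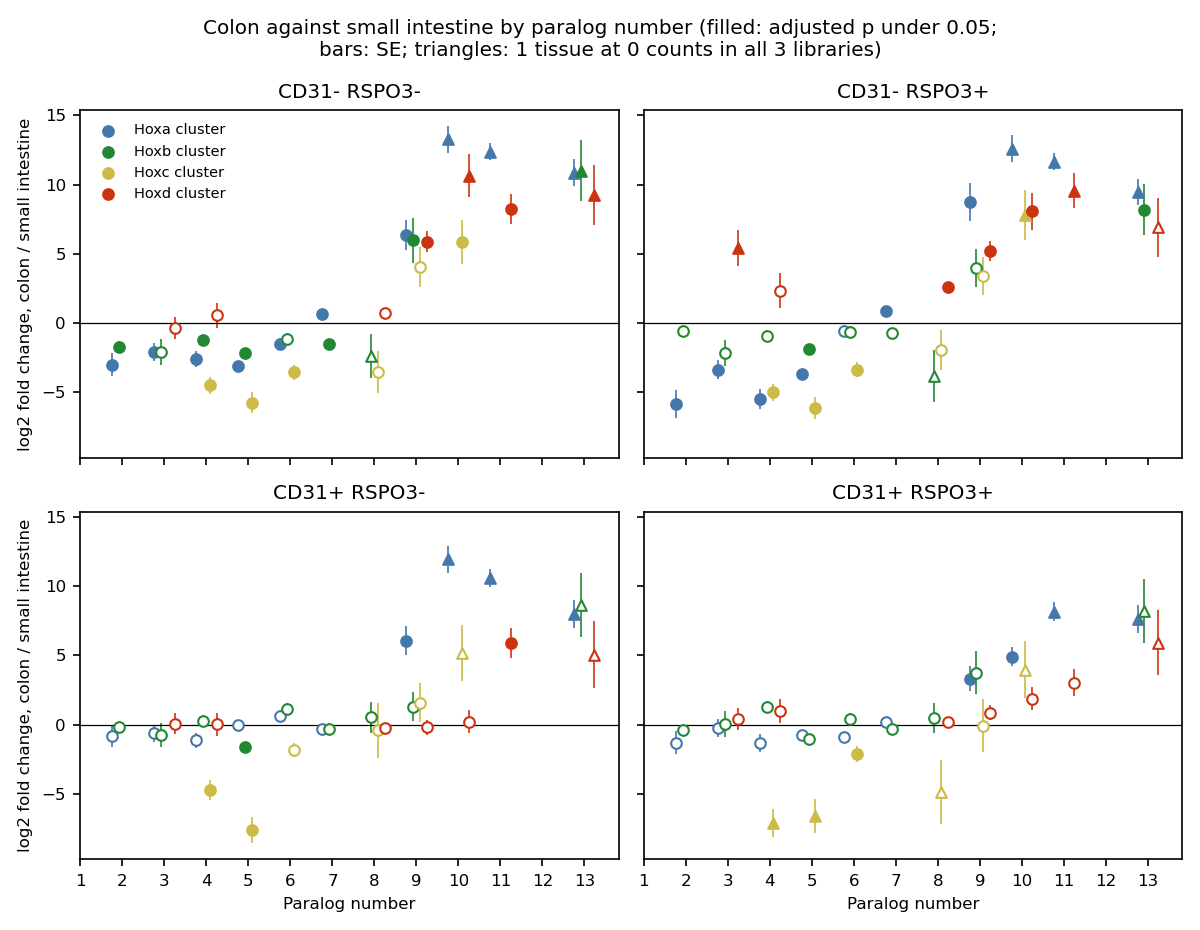
Fitted log2 fold change of colon over small intestine (± SE) for each tested Hox gene against its paralog number, in the 4 sorts. Filled points passed at adjusted p under 0.05, and triangles are genes at 0 counts in all 3 libraries of a tissue, whose fitted value depends on the prior count and is no measured size. Posterior paralogs lie above 0 and most anterior ones below in CD31- cells, and fewer genes are filled in CD31+ cells.

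Hoxa10 had the highest level of any Hox gene in any library. It is known for its part in patterning the lower trunk and the uterus. In colon it stood at 67.2, 68.3 and 56.4 TPM in CD31- RSPO3- libraries and at 31.2, 39.3 and 21.9 TPM in CD31- RSPO3+ libraries. All 6 matching small intestinal libraries were at 0 counts. The colon level was at least 1347-fold higher in RSPO3- cells (edgeR adjusted p = 5.46e-07) and at least 916-fold higher in RSPO3+ cells (edgeR adjusted p = 4.09e-06), setting 3 counts over the group for the empty side.

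Hoxa11 and Hoxa13 were at 0 counts in all 12 small intestinal libraries. Hoxa11 acts in limb, kidney and uterus, and Hoxa13 in the hindgut and the digits. Hoxa11 reached 27.8, 30.5 and 21.5 TPM in colon CD31- RSPO3- libraries and 15.5, 15.2 and 8.02 TPM in CD31- RSPO3+ libraries. It was at least 732-fold higher in the former (edgeR adjusted p = 1.59e-07) and at least 477-fold in the latter (edgeR adjusted p = 1.43e-06). Its antisense gene Hoxa11os, at 54.7, 54.1 and 62.4 TPM in colon CD31- RSPO3- libraries, overlaps it, and reads of this unstranded kit cannot be told apart between them. Hoxa13 stood at 11.8, 10.8 and 5.8 TPM and 2.27, 3.78 and 2.01 TPM in the same sorts, at least 255-fold (edgeR adjusted p = 1.06e-05) and at least 104-fold higher (edgeR adjusted p = 0.000119).

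The posterior HoxD genes were also higher in colon CD31- stroma. Hoxd9 and Hoxd10 are used in the lower spinal cord and hindlimb. Hoxd9 stood at 3.9, 6.58 and 5.78 TPM in colon and 0.0234, 0.281 and 0 TPM in small intestine among CD31- RSPO3- libraries, with no overlap (log2 fold change 5.87 ± 0.76, SE, edgeR adjusted p = 1.73e-05). Among CD31- RSPO3+ libraries it stood at 4.94, 5.71 and 4.12 TPM and 0, 0.281 and 0.154 TPM (log2 fold change 5.2 ± 0.7, SE, edgeR adjusted p = 0.000117). Hoxd10 stood at 9.81, 10.3 and 10.2 TPM in colon CD31- RSPO3- libraries against 0 counts, at least 219-fold higher (edgeR adjusted p = 0.000107). In CD31- RSPO3+ libraries it stood at 4.62, 5.59 and 3.27 TPM against 0, 0 and 0.0367 TPM (edgeR adjusted p = 0.000988). Hoxd11, which acts with Hoxa11 in forearm and kidney, stood at 5.39, 9.58 and 6.95 TPM and 2.48, 3 and 2.53 TPM in the colon CD31- sorts. Over both sorts 1 small intestinal library held a read of it, at 0.0294 TPM (edgeR adjusted p = 2.8e-05 in RSPO3- and edgeR adjusted p = 0.000142 in RSPO3+ cells). Hoxd13, the last gene of its cluster, was higher in colon CD31- RSPO3- cells at 2.66, 2.91 and 2.64 TPM against 0 counts, at least 82.6-fold (edgeR adjusted p = 0.0123). In CD31- RSPO3+ cells, at 0.546, 0.140 and 0.589 TPM, it was the posterior gene nearest to passing (edgeR adjusted p = 0.0788).

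Other posterior genes passed in part. Hoxa9, best known from blood cell progenitors, was higher in colon CD31- RSPO3- cells at 10.1, 8.96 and 12.9 TPM against 0.267, 0 and 0.117 TPM (log2 fold change 6.37 ± 1.09, SE, edgeR adjusted p = 0.00034), and in RSPO3+ cells at 4.84, 5.31 and 6.69 TPM against 0, 0 and 0.116 TPM (edgeR adjusted p = 0.000471). Hoxc10, the most posterior HoxC gene tested, stood at 0.881, 1.82 and 1.22 TPM and 1.01, 1.48 and 0.704 TPM in the colon CD31- sorts (edgeR adjusted p = 0.0212 and edgeR adjusted p = 0.0191). Small intestinal CD31- libraries held it at 0 in 5 of 6. The RSPO3- difference of Hoxc10 was no longer past the threshold without small intestinal library 1 (edgeR adjusted p = 0.0882), small intestinal library 3 (0.105) or colon library 2 (0.058), and the RSPO3+ difference without each of the small intestinal libraries in turn (0.068 to 0.0705). Hoxb9 in CD31- RSPO3- cells, at 1.61, 0.350 and 1.09 TPM in colon (edgeR adjusted p = 0.0142), lost its call without small intestinal library 2 (0.0513) or 3 (0.0728) and with limma (0.0868). Hoxc9, at 0.324, 0.906 and 1.37 TPM in colon CD31- RSPO3- libraries, was the posterior gene nearest to passing there (edgeR adjusted p = 0.0597).

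**Figure D4:**
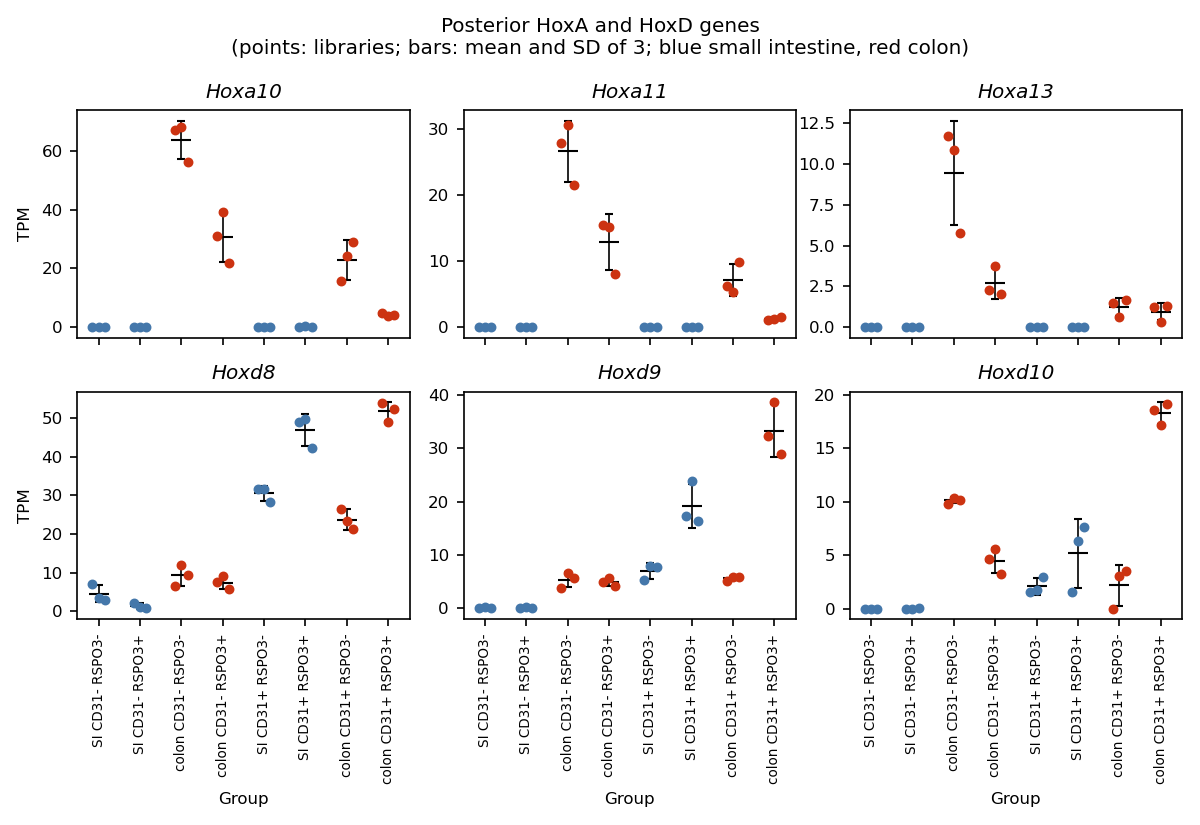
Levels in TPM of Hoxa10, Hoxa11, Hoxa13, Hoxd8, Hoxd9 and Hoxd10 by group, with each library as a point and the mean and SD of 3 as bars (blue small intestine, red colon). Hoxa10, Hoxa11 and Hoxa13 are highest in colon CD31- RSPO3- libraries, and Hoxd8, Hoxd9 and Hoxd10 are highest in CD31+ RSPO3+ libraries of colon.

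Hoxb13, the posterior HoxB gene that is also used in colon epithelium and prostate, varied widely between libraries. It stood at 15.8, 3.24 and 11.7 TPM in colon CD31- RSPO3- libraries (edgeR adjusted p = 0.00318) and at 0.682, 0.0794 and 9.82 TPM in colon CD31- RSPO3+ libraries (edgeR adjusted p = 0.0179). The RSPO3+ call was lost without colon library 3 (edgeR adjusted p = 0.102), without each of the small intestinal libraries in turn (0.0755 to 0.0809) and with limma (0.195). In both CD31+ sorts the tissue difference of Hoxb13 did not pass (edgeR adjusted p = 0.05, just over the threshold before rounding, in RSPO3- and edgeR adjusted p = 0.0517 in RSPO3+ cells), at 0.818, 0.720 and 4.28 TPM and 2.11, 0.730 and 1.52 TPM in colon. Epcam, which the sort was meant to remove, stood at 302, 107 and 226 TPM, 12.6, 3.28 and 134 TPM, 21.3, 8.35 and 54.1 TPM and 29.3, 4.71 and 17.3 TPM in the same libraries. The order of the 3 libraries by Hoxb13 was the order by Epcam in 4 of 4 colon groups, a match chosen after its values were seen. Of the 38 genes Hoxb13 was the only one to match in all 4 groups, and Hoxb9 matched in 3. Library 2 was lowest for Epcam in all 4 colon groups, so the 4 orders may not be independent. In small intestine Epcam stood at 502, 582 and 764 TPM in CD31- RSPO3- libraries, all at 0 counts of Hoxb13. Epithelial markers summed to 1458 to 4768 TPM in colon CD31- RSPO3- libraries and 7085 to 13960 TPM in the small intestinal ones, and their part in the Hoxb13 result was not tested.

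Anterior and central genes ran the other way in CD31- stroma. Hoxa5, which patterns the lung, stomach and gut wall, fell from 35, 42.3 and 31.1 TPM in small intestine to 5.8, 5.67 and 3.87 TPM in colon among CD31- RSPO3- libraries, 8.47-fold (log2 fold change -3.08 ± 0.33, SE, edgeR adjusted p = 2e-06). In CD31- RSPO3+ libraries it fell from 26.6, 29.9 and 33.9 TPM to 1.03, 2.22 and 2.99 TPM (log2 fold change -3.7 ± 0.35, SE, edgeR adjusted p = 2.12e-06). No colon CD31- library reached the lowest small intestinal one. Hoxa4, used in the neck and upper trunk, stood at 7.82, 6.91 and 6.89 TPM in small intestine and 0.265, 0 and 0.184 TPM in colon among CD31- RSPO3+ libraries (log2 fold change -5.48 ± 0.7, SE, edgeR adjusted p = 7.79e-05). Hoxa2, which patterns the pharyngeal arches and hindbrain, stood in the same libraries at 0.236, 0.101 and 0.0847 TPM in colon and 6.71, 8.46 and 9.53 TPM in small intestine (log2 fold change -5.84 ± 1.03, SE, edgeR adjusted p = 0.00121). Hoxa3, a gene of thymus and parathyroid development, was lower in colon in both CD31- sorts (edgeR adjusted p = 0.0302 and edgeR adjusted p = 0.00507), but the RSPO3- call was lost on leaving out each of its 6 libraries in turn (edgeR adjusted p 0.0534 to 0.107), and the RSPO3+ call with only the compared libraries in the fit (0.106). Its annotated span covers Hoxa4, Hoxa5 and Hoxa6, so reads in shared sequence may be split between them.

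Of the HoxC genes, which pattern neck, thorax and skin, Hoxc4, Hoxc5 and Hoxc6 were lower in colon in both CD31- sorts. Hoxc4 fell from 11, 6.41 and 7.9 TPM to 0.547, 0.495 and 0.302 TPM in CD31- RSPO3- cells, 22.7-fold (log2 fold change -4.5 ± 0.6, SE, edgeR adjusted p = 4.37e-05), and from 9.16, 8.5 and 10.5 TPM to 0.278, 0.258 and 0.263 TPM in CD31- RSPO3+ cells, 32.8-fold (log2 fold change -5.01 ± 0.63, SE, edgeR adjusted p = 0.000103). Hoxc5 fell from 7.79, 5.51 and 4.09 TPM to 0.296, 0.265 and 0.0249 TPM (log2 fold change -5.76 ± 0.76, SE, edgeR adjusted p = 3.52e-05) and from 7.09, 6.69 and 6.2 TPM to 0.138, 0.199 and 0.0742 TPM (log2 fold change -6.13 ± 0.79, SE, edgeR adjusted p = 0.000119). Hoxc5 overlaps Hoxc6, Hoxc8, Hoxc9 and Hoxc10 in the annotation, so its reads are less certain. Hoxc6 stood at 13.6, 12.7 and 7.38 TPM in small intestine and 0.800, 2.24 and 1.14 TPM in colon CD31- RSPO3- libraries (log2 fold change -3.56 ± 0.54, SE, edgeR adjusted p = 0.000111), and fell also in RSPO3+ cells (log2 fold change -3.37 ± 0.55, SE, edgeR adjusted p = 0.000698). HoxC genes made up 18.1% and 16.2% of summed Hox TPM in the small intestinal CD31- RSPO3- and RSPO3+ groups, and 2.29% and 2.55% in colon. In CD31+ groups the shares were 2.47% and 1.04% in small intestine and 0.422% and 0.121% in colon.

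Of the HoxB genes, Hoxb5 was lower in colon in both CD31- sorts. It acts in the neural crest of the gut. It was lower in colon in CD31- RSPO3- cells, at 5.95, 4.31 and 2.95 TPM against 15.8, 22.6 and 13.4 TPM (log2 fold change -2.2 ± 0.34, SE, edgeR adjusted p = 0.000137), and in RSPO3+ cells, at 6.46, 9.36 and 4.11 TPM against 24.4, 24.6 and 28.6 TPM (log2 fold change -1.87 ± 0.34, SE, edgeR adjusted p = 0.00161). Hoxb2, a hindbrain gene, was lower in colon CD31- RSPO3- cells at 10.7, 8.09 and 4.3 TPM against 25.4, 22.6 and 16.4 TPM (log2 fold change -1.71 ± 0.43, SE, edgeR adjusted p = 0.00894), a call lost without colon library 3 (edgeR adjusted p = 0.054). In RSPO3+ cells it stood at 19.9, 23.7 and 10.02 TPM and 27.8, 26.4 and 28.2 TPM (log2 fold change -0.58 ± 0.42, SE, edgeR adjusted p = 0.486). Hoxb7 stood at 1.92, 1.51 and 1.64 TPM against 6.44, 2.15 and 3.18 TPM in CD31- RSPO3- cells (log2 fold change -1.49 ± 0.33, SE, edgeR adjusted p = 0.00365), with the call lost when only the compared libraries entered the fit (edgeR adjusted p = 0.0559). Against the other central genes, Hoxa7 was higher in colon in both CD31- sorts (edgeR adjusted p = 0.0429 and edgeR adjusted p = 0.0203), by log2 values of 0.66 and 0.88. These calls were lost in 8 and 6 of the alternatives, colon library 3 among them in RSPO3+ cells (edgeR adjusted p = 0.123). Hoxd8 was higher in colon in CD31- RSPO3+ cells, at 7.49, 9.05 and 5.84 TPM against 2.16, 1.14 and 0.838 TPM (log2 fold change 2.61 ± 0.27, SE, edgeR adjusted p = 7.78e-06), and missed the threshold in CD31- RSPO3- cells (log2 fold change 0.73 ± 0.25, SE, edgeR adjusted p = 0.0532). Among paralogs 1 to 4 the gene nearest to passing was Hoxb3 (log2 fold change -2.12 ± 0.93, SE, edgeR adjusted p = 0.128) in CD31- RSPO3- cells and Hoxb4 (log2 fold change -0.93 ± 0.39, SE, edgeR adjusted p = 0.18) in RSPO3+ cells.

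**Figure D5:**
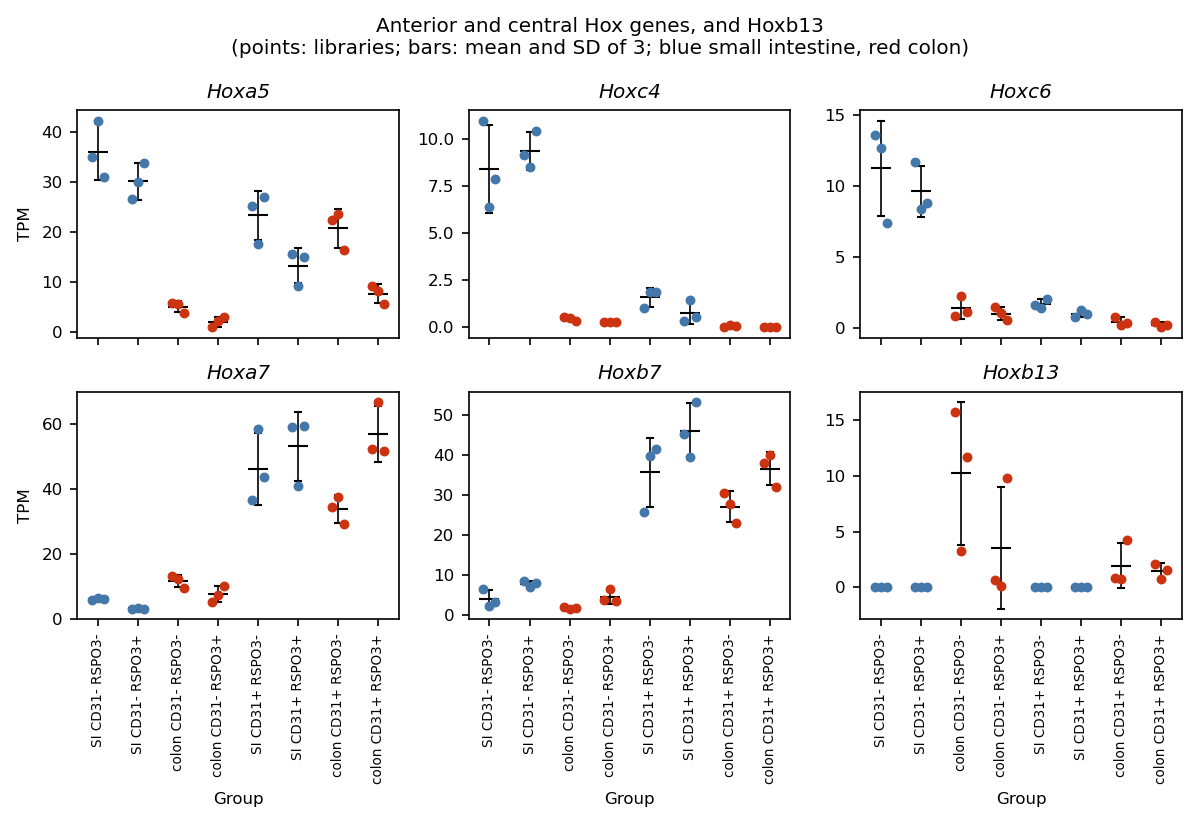
Levels in TPM of Hoxa5, Hoxc4, Hoxc6, Hoxa7, Hoxb7 and Hoxb13 by group, with each library as a point and the mean and SD of 3 as bars (blue small intestine, red colon). Hoxc4 and Hoxc6 are highest in small intestinal CD31- libraries, Hoxa7 and Hoxb7 are high in CD31+ libraries of both tissues, and Hoxb13 spreads widely in colon CD31- libraries.

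In CD31+ cells fewer Hox genes passed the test between the tissues. As in CD31- cells, posterior genes at 0 counts in small intestine could be called higher or not at all. In RSPO3- cells 5 were higher and 3 lower in colon, where 2.72% and 1.71% of all genes were. Posterior genes gave 5 higher and 0 lower with a median of 5.53 (3.21 at the bound) against 0.04 over all genes, and paralogs 1 to 4 and 5 to 8 gave 0 higher and 1 lower, and 0 and 2, with medians of -0.64 and -0.3. In RSPO3+ cells 4 were higher and 3 lower, where 2.83% and 3.52% of all genes were. Posterior genes gave 4 and 0 with a median of 3.84 (3.17 at the bound) against 0.0, and the other classes 0 and 1, and 0 and 2, with medians of -0.27 and -0.74.

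Hoxa11 was again at 0 counts in small intestine and stood at 6.22, 5.32 and 9.9 TPM in colon CD31+ RSPO3- libraries, at least 150-fold higher (edgeR adjusted p = 2.07e-05). In CD31+ RSPO3+ libraries it stood at 1.04, 1.25 and 1.6 TPM, at least 30.4-fold (edgeR adjusted p = 3.16e-05). Hoxa10 stood at 15.6, 24.4 and 28.9 TPM in RSPO3- colon libraries, at least 384-fold higher (edgeR adjusted p = 2.77e-05). In RSPO3+ cells it stood at 4.79, 3.71 and 4.13 TPM against 0, 0.366 and 0 TPM (edgeR adjusted p = 0.000477). Hoxa13 stayed low, at 1.48, 0.597 and 1.64 TPM and 1.22, 0.334 and 1.32 TPM in colon CD31+ libraries (edgeR adjusted p = 0.00095 in RSPO3- and edgeR adjusted p = 0.000832 in RSPO3+ cells). The RSPO3- call of Hoxa13 was lost when the fit held only the compared libraries (edgeR adjusted p = 0.0517). Hoxa9 had the highest mean level of the HoxA genes in colon CD31+ RSPO3- cells, at 44.5, 38 and 29.4 TPM against 0, 0 and 1.8 TPM (log2 fold change 6.06 ± 1.03, SE, edgeR adjusted p = 0.00151). In RSPO3+ cells Hoxa9 stood at 16.4, 11.1 and 9.49 TPM against 0.974, 0.931 and 1.44 TPM (log2 fold change 3.31 ± 0.9, SE, edgeR adjusted p = 0.0309), and that call was lost on leaving out small intestinal library 1 or 2 or any colon library (edgeR adjusted p 0.0507 to 0.125). Hoxd11 was higher in colon CD31+ RSPO3- cells, at 0.597, 1.06 and 1.41 TPM (edgeR adjusted p = 0.0041).

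Of the genes lower in colon CD31+ cells, Hoxc4 fell from 1.00, 1.85 and 1.88 TPM to 0, 0.115 and 0.0343 TPM in RSPO3- cells (edgeR adjusted p = 0.000592) and from 0.300, 1.47 and 0.557 TPM to 0 counts in RSPO3+ cells, at least 16.1-fold (edgeR adjusted p = 0.000239). Hoxc5 fell from 2.15, 2.22 and 3.33 TPM to 0.0264, 0 and 0 TPM (edgeR adjusted p = 0.000126) and from 0.396, 0.569 and 0.362 TPM to 0 counts (edgeR adjusted p = 0.00247, and 0.105 with limma). Both genes were also lower in small intestinal CD31+ than in CD31- libraries of RSPO3+ cells, as given with the CD31 comparison. Hoxb5 was lower in colon CD31+ RSPO3- cells, at 9.26, 5.33 and 3.51 TPM against 20.1, 21.9 and 17.1 TPM (log2 fold change -1.64 ± 0.34, SE, edgeR adjusted p = 0.0068). With only the compared libraries in the fit, the RSPO3- calls of Hoxc4 and Hoxb5 were lost (edgeR adjusted p = 0.0701 for each). Hoxc6 in RSPO3+ cells, at 0.395, 0.0583 and 0.164 TPM against 0.756, 1.23 and 0.950 TPM (log2 fold change -2.15 ± 0.59, SE, edgeR adjusted p = 0.032), lost its call without small intestinal library 2 (0.114) or 3 (0.0744) or colon library 2 (0.132) or 3 (0.124), with no filter on low counts (0.0683) and with limma (0.135). With only the compared libraries in the fit, 21 Hox genes were tested in CD31+ RSPO3+ cells. Hoxc4, Hoxc5 and Hoxc6 were not among them, so that fit is no retest of their calls. In it edgeR called 5 Hox genes higher and 0 lower in colon (2 lower at an unadjusted p under 0.05), and 1165 of 14959 genes in either direction. Of 32 Hox genes, limma called 6 higher and 1 lower, and 1113 of 19050 genes in either direction. The anterior gene nearest to passing was Hoxa4 (log2 fold change -1.15 ± 0.56, SE, edgeR adjusted p = 0.287) in RSPO3- cells and Hoxb4 (log2 fold change 1.29 ± 0.4, SE, edgeR adjusted p = 0.06) in RSPO3+ cells.

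The level of the fibroblast gene Dcn was set beside the posterior genes of colon CD31+ libraries. Dcn in colon CD31+ RSPO3- libraries 1 to 3 was 5.7%, 6.35% and 33.3% of its mean in colon CD31- RSPO3- libraries. Hoxa10 was at 24.4%, 38.1% and 45.2% of its own CD31- mean in those libraries, and Hoxa11 at 23.4%, 20% and 37.2%. In colon CD31+ RSPO3+ libraries Dcn was at 9.73%, 2.66% and 3.05%, Hoxa10 at 15.5%, 12.0% and 13.4%, and Hoxa11 at 8.11%, 9.71% and 12.4%. Hoxa13 was at 15.7%, 6.31% and 17.4% in the RSPO3- and 45.4%, 12.4% and 49.3% in the RSPO3+ libraries, Hoxd11 at 8.18%, 14.5% and 19.3% and at 11.0%, 12.6% and 21.4%, and Hoxd10 at 0%, 30.4% and 34.9% and at 413%, 382% and 426%. In RSPO3- library 3, where Dcn was highest, Hoxa10, Hoxa11 and Hoxd10 stood above Dcn and Hoxa13 and Hoxd11 below it. Hoxa13 in RSPO3- library 2, Hoxd10 in RSPO3- library 1 and Hoxa11 in RSPO3+ library 1 were also below Dcn. Hoxa9 averaged 350% and 220% of its CD31- mean in the RSPO3- and RSPO3+ sorts. In colon RSPO3- cells, smooth muscle markers summed to 531 to 944 TPM in CD31+ and 2606 to 3802 TPM in CD31- libraries. Pericyte markers summed to 241 to 413 and 169 to 287 TPM, and enteric glia markers to 21.5 to 62.4 and 188 to 322 TPM. In colon RSPO3+ cells smooth muscle markers summed to 153 to 272 and 318 to 576 TPM, and pericyte markers to 63.8 to 72.8 and 52.7 to 74.8 TPM. The part of carried-over CD31- RNA in the CD31+ results was not tested.

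Hoxa7, Hoxb7 and Hoxd8, genes from the middle of their clusters, were higher in CD31+ than in CD31- cells in all 4 comparisons of the CD31 sorts. In small intestinal RSPO3- cells 6 Hox genes were higher in CD31+ and 4 lower, where 20.1% and 21.6% of all genes were. In small intestinal RSPO3+ cells the counts were 10 and 9 (16.9% and 19.6% of all genes), in colon RSPO3- cells 10 and 6 (16.1% and 16.4%), and in colon RSPO3+ cells 7 and 10 (14.9% and 18.2%). In the last of these the balance turned over with limma, at 12 and 8 of 32 tested, and with only the compared libraries, at 9 and 5 of 23 tested. Genes with too few counts for the latter fit could not be called in it. Over all genes, these 2 fits called 6573 of 19050 and 5694 of 15256, against 6314 of 19050 with edgeR on all libraries. These 4 comparisons share no library, but they come from the same fit, and whether their libraries share mice is not known.

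Hoxa7 and Hoxb7 are paralogs from separate clusters and known for patterning the thorax. Hoxa7 stood at 36.6, 58.3 and 43.7 TPM in small intestinal CD31+ RSPO3- libraries and 5.73, 6.55 and 6.03 TPM in CD31- ones (log2 fold change 2.65 ± 0.23, SE, edgeR adjusted p = 2.7e-08). In small intestinal RSPO3+ cells it stood at 59, 40.9 and 59.4 TPM and 3.17, 3.37 and 3.14 TPM (log2 fold change 3.45 ± 0.24, SE, edgeR adjusted p = 9.57e-10). Colon gave the same order at 34.5, 37.6 and 29.3 TPM against 13.3, 12.2 and 9.61 TPM in RSPO3- cells (log2 fold change 1.66 ± 0.22, SE, edgeR adjusted p = 1.02e-05) and 52.2, 66.7 and 51.6 TPM against 5.33, 7.29 and 10.2 TPM in RSPO3+ cells (log2 fold change 2.76 ± 0.23, SE, edgeR adjusted p = 1.78e-08). Hoxb7 stood at 30.5, 27.9 and 22.9 TPM in colon CD31+ RSPO3- libraries, 16.7-fold over its CD31- level (log2 fold change 4.06 ± 0.36, SE, edgeR adjusted p = 4.2e-08). In the other CD31 comparisons the log2 fold change of Hoxb7 was 2.88 (small intestine RSPO3-, edgeR adjusted p = 1.1e-06), 2.37 (small intestine RSPO3+, edgeR adjusted p = 6.5e-06) and 2.78 (colon RSPO3+, edgeR adjusted p = 1.78e-06).

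Hoxd8, the first HoxD gene on the posterior side of Hoxd4, stood at 48.9, 49.7 and 42.1 TPM in small intestinal CD31+ RSPO3+ libraries and 2.16, 1.14 and 0.838 TPM in CD31- RSPO3+ libraries, 30.9-fold (log2 fold change 4.94 ± 0.3, SE, edgeR adjusted p = 1.97e-10). In small intestinal RSPO3- cells it stood at 31.6, 31.6 and 28.2 TPM against 7.17, 3.59 and 3.01 TPM (log2 fold change 2.39 ± 0.26, SE, edgeR adjusted p = 6.18e-07). In colon it was 53.7, 49.1 and 52.2 TPM against 7.49, 9.05 and 5.84 TPM in RSPO3+ cells (log2 fold change 2.53 ± 0.26, SE, edgeR adjusted p = 3.11e-07). The antisense gene Hoxd3os1, whose reads cannot be told apart from those of Hoxd8 where they overlap, had means of 5.4 and 0.905 TPM in CD31- and 50.8 and 52.9 TPM in CD31+ cells of small intestine, and 8.16 and 6.74 against 33.9 and 68.9 TPM in colon (RSPO3- then RSPO3+). Hoxd9 followed it in small intestine, at 5.26, 7.97 and 7.71 TPM in CD31+ RSPO3- and 17.3, 23.9 and 16.4 TPM in CD31+ RSPO3+ libraries. Against CD31- libraries of the same tissue and reporter sign, mean CPM was 59.4-fold (edgeR adjusted p = 2.45e-06) and 115-fold (edgeR adjusted p = 2.55e-07) higher. Hoxd10 stood at 1.54, 1.72 and 2.98 TPM and 1.57, 6.29 and 7.66 TPM in the same CD31+ sorts. With the threshold of 1 TPM in all libraries, HoxD thus ended at paralog 10 and HoxA at paralog 7 in small intestinal CD31+ cells, but Hoxa9 missed it narrowly in RSPO3+ cells (0.974, 0.931 and 1.44 TPM) and was on there at 0.5 TPM. Hoxd11 in those libraries did not exceed 0.177 TPM.

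In the other direction, Hoxc4, Hoxc5 and Hoxc6 were lower in CD31+ than in CD31- cells of the RSPO3+ sort in both tissues. In small intestine their log2 fold changes were -3.8, -4.42 and -3.27 (edgeR adjusted p = 4.16e-05, 5.41e-05 and 6.69e-05). In colon no HoxC gene reached 1 TPM in all libraries of either group, and these calls were lost in 1, 1 and 2 of the alternatives. Hoxa11 was lower in CD31+ cells of colon, at a log2 fold change of -1.82 in RSPO3- (edgeR adjusted p = 0.00135) and -3.51 in RSPO3+ cells (edgeR adjusted p = 1.12e-05). Hoxa5 was lower in CD31+ cells of small intestine (log2 fold change -0.92 ± 0.31, SE, edgeR adjusted p = 0.0214 in RSPO3- cells) and higher in CD31+ cells of colon (log2 fold change 2.1 ± 0.32, SE, edgeR adjusted p = 5.02e-05 in RSPO3- cells). The small intestinal RSPO3- call of Hoxa5 was lost without library 2 of either sort (0.0598 and 0.0809) and with limma (0.059). Hoxb6 was higher in CD31+ RSPO3- cells of colon, at 20.1, 19 and 15.1 TPM against 5.33, 2.75 and 1.2 TPM (log2 fold change 2.83 ± 0.47, SE, edgeR adjusted p = 0.00011).

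The tests of a tissue difference in the CD31 effect called 5 Hox genes in RSPO3- cells and 7 in RSPO3+ cells, where 4.98% and 3.17% of all genes were called in either direction. Hoxa5 was called in both, with its CD31 effect higher in colon by a log2 value of 3.02 ± 0.44 (SE, edgeR adjusted p = 0.000382) in RSPO3- and 2.96 ± 0.45 (edgeR adjusted p = 0.00069) in RSPO3+ cells. Hoxd9 went the other way in both, at -6.07 ± 0.93 (edgeR adjusted p = 0.000568) and -4.34 ± 0.86 (edgeR adjusted p = 0.00669). In colon RSPO3- cells Hoxd9 stood at 5.19, 5.86 and 5.98 TPM in CD31+ and 3.9, 6.58 and 5.78 TPM in CD31- libraries, ranges that overlapped. Hoxd8 differed in RSPO3+ cells (-2.41 ± 0.37, edgeR adjusted p = 0.000677). These calls of Hoxa5, Hoxd9 and Hoxd8, and that of Hoxd10 in RSPO3- cells (edgeR adjusted p = 0.00213), held under every alternative run. Hoxd10 stood at 0 counts in small intestinal CD31- RSPO3- libraries, so the size of its fitted value depends on the prior count. Hoxa11, Hoxa13 and Hoxd13 were at 0 counts in all small intestinal groups, where no CD31 effect in small intestine could be estimated.

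Except in colon CD31+ cells, the reporter comparisons called fewer Hox genes than any CD31 comparison. In small intestinal CD31- cells 1 was higher in RSPO3+ and 3 lower, where 16.1% and 14.3% of all genes were. In small intestinal CD31+ cells 0 were higher and 5 lower (9.23% and 10.8%), with 3 higher at an unadjusted p under 0.05 by edgeR, and 3 by DESeq2 and 1 by limma at an adjusted p under 0.05. In colon CD31- cells 3 were higher and 1 lower (4.8% and 4.34%), and without colon CD31- RSPO3+ library 3 the counts were 3 and 5. Over all genes, 2300 of 19865 were then called in either direction, against 1741 of 19050 with all libraries. The balance turned over with limma, at 1 and 8. Limma called 3306 of 19050 genes there, and the median log2 fold change over all genes was -0.23, against 0.0 with edgeR. In colon CD31+ cells 4 were higher and 8 lower (9.52% and 13.6%).

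Hoxd8 moved down with the reporter in 1 sort and up in another. It was lower in RSPO3+ than RSPO3- cells of small intestinal CD31- stroma (log2 fold change -1.85 ± 0.27, SE, edgeR adjusted p = 3.57e-05), with all 3 RSPO3+ libraries below the RSPO3- ones. It was higher in RSPO3+ cells of colon CD31+ stroma (log2 fold change 1.18 ± 0.25, SE, edgeR adjusted p = 0.00159), and these 2 sorts were not tested against each other. Hoxd9 and Hoxd10 rose with it there, Hoxd9 to 32.4, 38.6 and 28.9 TPM from 5.19, 5.86 and 5.98 TPM (log2 fold change 2.59 ± 0.56, SE, edgeR adjusted p = 0.00197) and Hoxd10 to 18.6, 17.2 and 19.1 TPM from 0, 3.07 and 3.53 TPM (log2 fold change 3.07 ± 0.88, SE, edgeR adjusted p = 0.0167). With only the compared libraries in the fit, the Hoxd10 call was lost (edgeR adjusted p = 0.0564). Hoxa10 and Hoxa11 fell in the same comparison (log2 fold change -2.5 ± 0.49, SE, edgeR adjusted p = 0.00205 and log2 fold change -2.41 ± 0.35, SE, edgeR adjusted p = 0.000301). HoxD genes made up 41.5% of summed Hox TPM in colon CD31+ RSPO3+ cells and 13.8% in RSPO3- cells, and 32.7% and 18.0% in small intestinal CD31+ cells. The lymphatic marker sums given above moved with the CD31+ comparison. In the small intestinal CD31- comparison, epithelial markers summed to 7085 to 13960 TPM in RSPO3- and 77.3 to 239.7 TPM in RSPO3+ libraries, mesothelial markers to 224 to 479.6 and 1.25 to 17.5 TPM, and fibroblast markers to 7094 to 11350 and 52500 to 53670 TPM. The part of these cell types in the reporter results was not tested.

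Hoxd3 was at 0 counts in small intestinal CD31- RSPO3+ libraries and at 0.257, 1.04 and 0.373 TPM in RSPO3- ones, at least 21.1-fold (edgeR adjusted p = 0.000297, and 0.116 with limma). Hoxd4, whose annotated span lies within that of Hoxd3, was lower in the same comparison (edgeR adjusted p = 0.019), and that call was lost without RSPO3- library 2 (edgeR adjusted p = 0.0695) or RSPO3+ library 2 (0.0731) or 3 (0.0669) and with limma (0.392). Hoxb7 was higher in RSPO3+ cells of colon CD31- stroma, at 3.7, 6.53 and 3.33 TPM against 1.92, 1.51 and 1.64 TPM (log2 fold change 1.74 ± 0.34, SE, edgeR adjusted p = 0.00227), a call lost with only the compared libraries in the fit (0.0543). Hoxb6 and Hoxb2 were higher and Hoxa4 lower there (edgeR adjusted p = 0.0306, 0.033 and 0.0452), and each of these 3 calls was lost in several fits that left out a library. In small intestinal CD31+ cells Hoxb9 was lower in RSPO3+ cells, at 0, 0.0439 and 0.0702 TPM against 5.33, 0.701 and 5.8 TPM (edgeR adjusted p = 0.00294), and Hoxa4, Hoxb4 and Hoxc5 were lower as well (edgeR adjusted p = 0.00426, 0.00517 and 0.00537).

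The tests of a tissue difference in the reporter effect called 3 Hox genes in CD31- cells, where 8.38% of all genes were called in either direction, and 1 in CD31+ cells, where 1.93% were. In CD31- cells these were Hoxd8 (1.88 ± 0.37, SE, edgeR adjusted p = 0.00317), Hoxd3 (edgeR adjusted p = 0.0228) and Hoxa4 (edgeR adjusted p = 0.0433). In CD31+ cells it was Hoxa10 (edgeR adjusted p = 0.0441), which in small intestine rests on 1 library with a count. Without that library, CD31+ RSPO3+ library 2, the edgeR adjusted p was 1.0.

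Of the 6 genes not tested, Hoxc12 and Hoxc13 were at 0 in all 24 libraries. Hoxb1, Hoxc11, Hoxd1 and Hoxd12 reached at most 1.58 TPM in a library (Hoxd1, colon CD31+ RSPO3- library 1). Among the tested genes, Hoxb8, a central gene between Hoxb7 and Hoxb9 in its cluster, stayed at or below 0.59 TPM while Hoxb7 reached 53.3 TPM. At these low levels Hoxb8 was called higher in CD31+ than in CD31- cells of colon, in RSPO3- and in RSPO3+ cells. The RSPO3- call was lost in 1 of the alternatives. Reads of Hoxb2 and Hoxb3 cannot be told apart from Hoxb3os, nor Hoxb5 and Hoxb6 from Hoxb5os, Hoxa3 to Hoxa7 from Hoxaas3, or Hoxd3, Hoxd4 and Hoxd8 from Hoxd3os1.

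Other genes of the pathway were counted in colon against small intestine, in the order of sorts CD31- RSPO3-, CD31- RSPO3+, CD31+ RSPO3- and CD31+ RSPO3+. Of all genes, 8.79%, 3.62%, 2.72% and 2.83% were higher and 8.81%, 3.4%, 1.71% and 3.52% lower in that order, which is the background for the count of each list, and their median log2 fold change was 0.1, -0.01, 0.04 and 0.0. Pknox1, a cofactor of the Meis family, was lower in CD31- RSPO3+ cells (log2 fold change -0.53 ± 0.13, SE, edgeR adjusted p = 0.0182). Of 18 Polycomb and trithorax genes 2, 1, 1 and 0 were higher and 1, 1, 0 and 2 lower, with medians of 0.15, -0.05, 0.04 and -0.13. Cbx8, a reader of the Polycomb mark, was lower in colon CD31- RSPO3- cells (log2 fold change -1.71 ± 0.39, SE, edgeR adjusted p = 0.00423) and higher in CD31+ RSPO3- cells (log2 fold change 1.61 ± 0.39, SE, edgeR adjusted p = 0.0201). Of 8 ParaHox and Evx genes 2 were tested, Cdx1 and Cdx2, which act in the intestinal epithelium, and neither passed in any sort.

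Against the same shares of all genes, of 12 tested retinoic acid genes 1, 1, 0 and 0 were higher and 3, 5, 3 and 6 lower in colon, with medians of -0.62, -1.03, -0.27 and -0.95. Rarb, a receptor that retinoic acid itself induces, was lower in CD31- RSPO3+ (log2 fold change -3.59 ± 0.53, SE, edgeR adjusted p = 0.000268), CD31+ RSPO3- (log2 fold change -2.57 ± 0.43, SE, edgeR adjusted p = 0.00134) and CD31+ RSPO3+ cells (log2 fold change -1.77 ± 0.41, SE, edgeR adjusted p = 0.0113). Cyp26b1, which breaks retinoic acid down, was lower in both CD31+ sorts (log2 fold change -3.16 ± 0.81, SE, edgeR adjusted p = 0.0288 and log2 fold change -6.64 ± 0.99, SE, edgeR adjusted p = 0.000235). Of 10 tested noncoding genes of the clusters 1, 2, 1 and 1 were higher and 2, 2, 0 and 0 lower, with medians of -0.72, -0.49, -0.01 and 0.04. Hoxa11os was higher in all 4 sorts. Of 16 tested genes that flank the clusters 4, 0, 1 and 0 were higher and 2, 1, 0 and 0 lower, with medians of 0.2, 0.0, 0.01 and 0.03. Skap2, next to the anterior end of HoxA, was lower in colon in both CD31- sorts (log2 fold change -1.16 ± 0.3, SE, edgeR adjusted p = 0.0095 and log2 fold change -1.81 ± 0.3, SE, edgeR adjusted p = 0.000881). Snx10, further out on that side, was higher in CD31- RSPO3- cells (log2 fold change 0.76 ± 0.16, SE, edgeR adjusted p = 0.00214).

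Of 15 tested transcription factors of the gut wall mesenchyme 4, 2, 4 and 2 were higher and 3, 3, 0 and 0 lower in colon, where 8.79%, 3.62%, 2.72% and 2.83% of all genes were higher and 8.81%, 3.4%, 1.71% and 3.52% lower. Their median log2 fold changes were 0.7, -0.39, 0.32 and 0.1. Isl1, a LIM homeodomain factor, was higher in all 4 sorts (edgeR adjusted p = 2.18e-05, 0.00416, 0.000114 and 0.00357). Its mean level was 21.3, 2.11, 4.18 and 0.94 TPM in colon and 0.334, 0.253, 0 and 0.0261 TPM in small intestine. Six2, a homeobox factor, was also higher in all 4 (edgeR adjusted p = 0.000174, 5.72e-05, 0.00362 and 0.00449), with means of 3.31, 17.3, 0.885 and 1.01 TPM in colon and 0.0346, 0.0733, 0 and 0.0116 TPM in small intestine. Gata4, a zinc finger factor of the upper gut, was lower in colon CD31- RSPO3- cells, at a mean of 0.0755 TPM against 23.7 TPM (edgeR adjusted p = 0.000249). In small intestine its mean was 23.7 TPM in CD31- RSPO3- and 0.618 TPM in CD31- RSPO3+ cells, where mean Epcam was 616 and 13.9 TPM, and the part of epithelial RNA in the Gata4 result was not tested. Smooth muscle markers, in the CD31- sorts, summed to 2606 to 3802 TPM in colon and 1105 to 1650 TPM in small intestine for RSPO3- cells, and to 318 to 576 TPM and 879 to 1273 TPM for RSPO3+ cells. Their part in the CD31- results was not tested.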

How the data were processed

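RNA-seq of sorted gut stromal cells was analysed in 24 libraries of 8 groups. Qiagen RNeasy RNA went into SMARTseq v4 libraries, per the labels' protocols. That full-length kit leaves strand unmarked. The submitters' processing notes name Salmon 1.3.0, R 4.0.1 and mm10. No source used here gives the annotation release or filters. The deposited values are estimated counts per gene, whole numbers not scaled to a common total, and the deposited log2 values are log2(TPM + 1), as their back-transformed sums show. Columns were matched to groups by name.

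GENCODE M21 (GRCm38) gave symbols for 54096 gene IDs (99.4%). 1 Hox gene found by the search is not reported here. Counts were tested with edgeR 4.0.16 in R 4.3.3 (quasi-likelihood F test, TMM, filterByExpr with minimum count 10 and total 15, 1 mean per group, no covariate), which kept 19050 genes. Adjusted p is Benjamini-Hochberg over all of them within each of 16 comparisons, past at under 0.05. The test was tried on simulated counts of fewer groups, with planted folds but no group set at 0. That check does not cover differences against empty groups. Folds are ratios of mean CPM scaled by TMM. Those against groups at 0 use a floor of 3 counts over the group and cover counting error only. Within groups, every pair of libraries differed beyond sampling noise (chi-square over its degrees of freedom at least 27.2), and all were kept.

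The Hox genes and other lists were chosen with earlier results of these data known. Genes are named with full values if among the 10 smallest adjusted p of a tissue comparison, the 4 smallest of a CD31 or reporter comparison, or any in an interaction, and 3 per other list. Alternatives were DESeq2 1.42.0, limma 3.58.1 on log2(TPM + 1), upper-quartile scaling, no filter, only the compared libraries, each library left out, CPM for shares, and thresholds of 0.5 and 2 TPM for end points.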

Additional observations from a re-analysis of the deposited data

Results flagged for a closer look

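The 16 results below are those where the CD31 or the reporter effect differed between colon and small intestine by the interaction test of edgeR. Values are colon effect minus small intestinal effect on the log2 scale. For Hoxd3, Hoxd10 and Hoxa10, a group at 0 counts makes the fitted size depend on the prior count.

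For the CD31 effect in RSPO3- cells, the value was 3.02 for Hoxa5 (edgeR adjusted p = 0.000382), -6.07 for Hoxd9 (edgeR adjusted p = 0.000568) and -10.44 for Hoxd10 (edgeR adjusted p = 0.00213). It was 2.15 for Hoxa6 (edgeR adjusted p = 0.0411) and 2.29 for Hoxb6 (edgeR adjusted p = 0.0379), and these 2 calls were lost in 10 and 9 of the alternatives.

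For the CD31 effect in RSPO3+ cells, the value was 2.96 for Hoxa5 (edgeR adjusted p = 0.00069), -2.41 for Hoxd8 (edgeR adjusted p = 0.000677) and -4.34 for Hoxd9 (edgeR adjusted p = 0.00669). It was 4.14 for Hoxa4 (edgeR adjusted p = 0.0176), lost without colon CD31+ RSPO3+ library 2 (0.0518) or 3 (0.0511) and with only the compared libraries (0.0768). It was 2.22 for Hoxb4 (edgeR adjusted p = 0.0322) and -6.21 for Hoxd10 (edgeR adjusted p = 0.0387), lost in 12 and 11 of the alternatives. It was -7.7 for Hoxa10 (edgeR adjusted p = 0.0118), and the adjusted p was 1.0 without small intestinal CD31+ RSPO3+ library 2.

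For the reporter effect in CD31- cells, the value was 1.88 for Hoxd8 (edgeR adjusted p = 0.00317, and 0.0724 with limma). It was 5.76 for Hoxd3 (edgeR adjusted p = 0.0228), lost in 4 of the alternatives, and -2.9 for Hoxa4 (edgeR adjusted p = 0.0433), lost in 13. For the reporter effect in CD31+ cells it was -7.02 for Hoxa10 (edgeR adjusted p = 0.0441), lost in 11.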

How the results depend on the processing

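Of 162 calls of Hox genes, 100 held under every alternative run. The alternatives gave 1861 values for these calls, of which 1622 stayed past the threshold, 238 did not and 1 lost its direction. That value was Hoxa10 in CD31+ against CD31- small intestinal RSPO3+ cells, at 0.0 (adjusted p = 1.0) without CD31+ RSPO3+ library 2, when both groups held 0 counts. Leaving out the other libraries gave up to 5.27. The number of Hox genes called, as printed in the report for the chosen fit, moved by over 1.5 times in the following cases. With DESeq2 it was 12 in colon against small intestine for CD31+ RSPO3+ cells (8 higher and 4 lower), 11 for the reporter in small intestinal CD31+ cells and 11 for the tissue difference of the CD31 effect in RSPO3+ cells. Over all 19050 genes DESeq2 called 1816, 4462 and 1123 in that order, against 1209, 3820 and 604 in the chosen fit. With limma it was 9 for the reporter in small intestinal CD31+ cells, 9 in colon CD31- cells (1 higher and 8 lower), 15 (5 positive and 10 negative) and 14 (8 and 6) for the tissue difference of the CD31 effect in RSPO3- and RSPO3+ cells, and 6 (all negative) and 4 (1 and 3) for that of the reporter effect in CD31- and CD31+ cells. Over all 19050 genes limma called 3853, 3306, 2119, 732, 3421 and 446 in that order, against 3820, 1741, 949, 604, 1597 and 367 in the chosen fit. Where it called 15 and 6 Hox genes, the median over all genes was -0.24 and -0.31, against -0.01 and -0.12 in the chosen fit. With only the compared libraries it was 5 in colon against small intestine for CD31+ RSPO3- cells, 3 for the tissue difference of the CD31 effect in RSPO3- cells, 1 for that of the reporter effect in CD31- cells and 0 in CD31+ cells (4 at an unadjusted p under 0.05). It was then 0 for the reporter in colon CD31- cells (9 at an unadjusted p under 0.05). Fits of only the compared libraries tested 27, 31, 31, 27 and 25 of the Hox genes in that order. Over all genes they called 320 of 15820, 718 of 18204, 1669 of 17754, 306 of 16764 and 1152 of 15877. The split of higher and lower moved with limma to 5 and 5 in colon against small intestine for CD31+ RSPO3- cells, 6 and 1 for CD31+ RSPO3+ cells, 11 and 10 for CD31 in colon RSPO3- cells and 2 and 2 for the reporter in small intestinal CD31- cells. Over all 19050 genes limma called 1000, 1113, 6644 and 5737 in that order, against 844, 1209, 6199 and 5796 in the chosen fit. Leaving out each library in turn gave 2 to 4 for the reporter in small intestinal CD31- cells, with 2 without RSPO3+ library 3. In colon CD31- cells it gave 1 to 8, with 1 without library 1 or 2 of RSPO3+ or library 2 or 3 of RSPO3- cells. For the tissue difference of the CD31 effect it gave 3 to 6 in RSPO3- cells and 4 to 8 in RSPO3+ cells, and for that of the reporter effect 1 to 3 in CD31- and 0 to 1 in CD31+ cells. The 3 in RSPO3- cells came without library 2 of small intestinal CD31+, 1 or 2 of colon CD31+, or 2 or 3 of colon CD31- cells, the 4 in RSPO3+ cells without colon CD31+ library 2 or 3, and the 1 in CD31- cells without small intestinal RSPO3+ library 1 or 2. The 0 came without each of 9 of the 12 CD31+ libraries. CPM in place of TPM moved the posterior share to 7.21% in small intestinal CD31+ RSPO3-, 58.6% in colon CD31- RSPO3+ and 30.2% in colon CD31+ RSPO3+ cells. Leaving out 1 library of a group from these shares was chosen after seeing the data and moved none beyond its spread.

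Upper-quartile scaling moved the median of all genes for CD31+ against CD31- colon RSPO3- cells to -0.17, from -0.07. No paired analysis was possible because the columns carry no replicate number of the labels. Depth limits genes near 1 TPM, where a library holds few counts.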
